A study of Mus musculus with 2 samples.

Results

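The joining segments of the T-cell receptor α chain, the Traj genes, were described along their locus in CD4- mature thymocytes of MHC-II0:CD8ab Tg mice. The members were all rows of the count tables whose symbol begins with Traj, which gave 60 of 48321 genes. They carry the numbers 1 to 61 without 10. GENCODE M21 lists 51 of them as joining segment genes and 9 as joining pseudogenes, which are Traj61, Traj60, Traj55, Traj54, Traj51, Traj36, Traj14, Traj8, and Traj1. The 51 are called functional here only because they are not listed as pseudogenes. Whether each encodes a working segment was not tested.

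RNA-seq was made from sorted cells of 1 genotype in 2 libraries, replicate 1 and replicate 2, and the sources used here do not say whether these came from separate mice. The mice, on the C57Bl/6 background, lack I-Aβ and with it MHC class II, carry disrupted Cd8a and Cd8b1 genes on both chromosomes, and express CD8α and CD8β from cDNAs placed in the Rosa26 locus that Cd4-Cre switches on. The CD8 made from Rosa26 is constitutive and weaker than the endogenous protein, so these cells stand for that transgenic setting, and wild-type libraries were not analysed here. The sample titles call the cells CD4-CD8-, while the cell type field calls them CD8+, and age and sex are not given in the labels. With a single condition, every comparison was between segments within a library or between the libraries themselves. The libraries held 16732644 and 16245849 counts on genes.

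A T-cell receptor α chain is made when a Vα segment is joined to a Jα segment in CD4+CD8+ thymocytes, and the Jα exon is then spliced in the RNA to the constant exons of Trac. The Jα segment encodes the end of the third complementarity-determining region, which contacts the peptide, and the strand that follows it. Joining is known to begin at the Jα segments on the V side and to move towards Trac with each further rearrangement of the same allele, until positive selection switches the recombinase off.

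On GRCm38 the Traj segments lay on the plus strand of chromosome 14 from position 54155005 to 54218842, a span of 63.8 kb, and Trac followed at 54220521 to 54224206. The start positions fell in the order of descending number in all 60 segments, so that Traj61 was on the V side and Traj1 next to Trac. Low numbers are therefore far from the V genes and near Trac, and high numbers are near the V genes. The annotated exons were 29 to 72 bases long, with a median of 61. No other annotated gene overlapped a segment. Of the segments with exons of 50 bases or more, none shared a 50-base window, the length of a read, with transcripts of another gene. The 4 shorter exons hold no such window and could not be checked, and reads that reach past an exon were not covered.

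The sequences of 14 segments are shown, from Traj60 down to Traj1. They hold the 10 highest shares, both segments without any count, the segment called between the libraries, and the segments of the invariant receptors. Each is the annotated exon on the plus strand, 5′ to 3′, from GENCODE M21 on GRCm38. Capitals mark a match, in any reading frame, to letters that can encode the Phe-Gly-X-Gly motif that Jα segments are known for, searched on both strands as TTTGGNNNNGGN or TTCGGNNNNGGN.
Traj60 (chr14:54155933-54155986): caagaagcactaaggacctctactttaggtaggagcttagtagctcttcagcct
Traj51 (chr14:54166239-54166281): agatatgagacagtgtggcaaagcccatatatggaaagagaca
Traj48 (chr14:54169808-54169868): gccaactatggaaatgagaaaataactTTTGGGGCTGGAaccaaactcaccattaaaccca
Traj33 (chr14:54185358-54185414): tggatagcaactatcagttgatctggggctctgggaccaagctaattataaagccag
Traj23 (chr14:54196081-54196140): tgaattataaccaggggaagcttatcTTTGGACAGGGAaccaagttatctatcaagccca
Traj19 (chr14:54200386-54200446): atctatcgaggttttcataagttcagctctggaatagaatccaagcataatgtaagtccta
Traj18 (chr14:54200777-54200842): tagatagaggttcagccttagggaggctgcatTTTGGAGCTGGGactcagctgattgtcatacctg
Traj16 (chr14:54203134-54203194): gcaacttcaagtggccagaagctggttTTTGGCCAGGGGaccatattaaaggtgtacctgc
Traj15 (chr14:54204422-54204481): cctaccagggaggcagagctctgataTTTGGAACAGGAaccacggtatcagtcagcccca
Traj12 (chr14:54206553-54206610): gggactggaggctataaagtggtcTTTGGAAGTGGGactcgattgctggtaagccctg
Traj11 (chr14:54207139-54207197): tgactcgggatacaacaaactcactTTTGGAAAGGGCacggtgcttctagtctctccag
Traj7 (chr14:54211470-54211528): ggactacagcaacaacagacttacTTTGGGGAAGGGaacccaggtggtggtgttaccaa
Traj2 (chr14:54217836-54217901): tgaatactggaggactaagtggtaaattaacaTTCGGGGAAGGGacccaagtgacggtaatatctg
Traj1 (chr14:54218814-54218842): gtgtgcagatagctgctccatctttcctg

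The letters were found on the given strand in 43 of 60 segments, and on the opposite strand in 0. They were in 42 of 51 functional segments and in 1 of 9 pseudogenes, Traj54, while 0.555% of 3935855 pieces of 60 bases cut from all annotated transcripts held them. In 41 of the 43, whole codons after the match left 1 base at the end of the exon, whereas in Traj7 and Traj46 they left 2, so that the match in these segments is in another frame than in the others and does not stand for the motif in that frame. Of the 17 segments without a match, 2 held a form with tryptophan in place of phenylalanine, TGGGGNNNNGGN, namely Traj38 and Traj33; 0.768% of the same pieces held that form. The letters were absent from 9 functional segments, among them Traj19 with 37 and 41 counts, which says only that these letters are not in the annotated exon. Segments with a match took 78.9% of the Traj counts in replicate 1 and 80.1% in replicate 2.

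Reads on Traj segments were most frequent on the low-numbered side, towards Trac, and thinned out towards the V genes. Replicate 1 held 1175 Traj counts and replicate 2 held 1074, which were 70.2 and 66.1 CPM (counts scaled to a library total of 1000000 on genes), with a mean of 68.2 ± 2.91 (SD, n = 2). Counts above 0 were found in 58 segments of replicate 1 and 56 of replicate 2, with medians of 16 and 15 and maxima of 56 and 62 counts. A count of 0 allowed a share of up to 0.255% of Traj counts in replicate 1 and 0.279% in replicate 2 (3 counts of the total), and this floor and the intervals given here cover counting error only. In such bulk counts, fewer cells using a segment and less RNA per cell cannot be told apart, nor can RNA of a joined α chain be told from unjoined germline RNA. Spliced RNA cannot be told from unspliced RNA either, which keeps the segments between the joined one and Trac. The shares are therefore shares of counts and do not measure how often a segment is used.

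Segments 1 to 20, of which 19 exist, took 652 of the Traj counts in replicate 1 and 635 in replicate 2. This was a share of 55.5% (Wilson 95% interval 52.6 to 58.3) and 59.1% (56.2 to 62.0), or 57.3% ± 2.57 (SD, n = 2). The 20 segments numbered 21 to 40 took 392 and 343 counts, which were 33.4% (30.7 to 36.1) and 31.9% (29.2 to 34.8). The remaining 21 segments, numbered 41 to 61, took 131 and 96 counts, which were 11.1% (9.47 to 13.1) and 8.94% (7.38 to 10.8). The 3 regions thus ranked in the same order in both libraries, and their intervals did not overlap within either library, although each region held about as many segments as the others. Counted per exon base, segments 1 to 20 held 59.7% and segments 41 and above 9.36% of the total, as means of the libraries. Counted per read position that touches the exon, an alternative chosen after seeing the data, these were 58.2% and 9.75%.

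Read in narrower blocks, the share did not rise all the way to Trac. Segments 11 to 20 took 32.9% and 32.6%, segments 1 to 9 took 22.6% and 26.5%, and segments 21 to 30 took 21.3% and 19.0% in replicates 1 and 2. The blocks nearer the V genes fell from 12.1% and 12.9% in segments 31 to 40 to 8.68% and 7.82% in segments 41 to 50. The 11 segments numbered 51 to 61 held only 29 and 12 counts, which were 2.47% (1.72 to 3.52) and 1.12% (0.640 to 1.94). The median number of counts for a segment, averaged over the libraries, was 31 in segments 1 to 9, 38 in segments 11 to 20, 21, 12, and 8.75 in the next blocks, and 2 in segments 51 to 61.

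**Figure D1:**
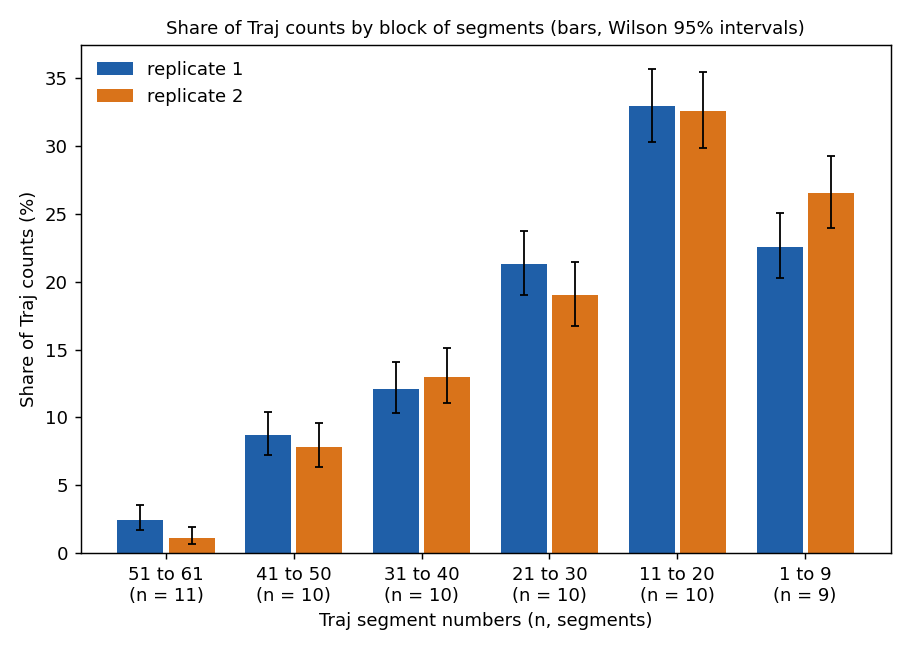
Share of all Traj counts (percent, y axis) taken by each block of segment numbers (x axis, V side at the left and Trac side at the right), with a bar for each of the 2 libraries and Wilson 95% intervals as error bars. Bars rise from 2.47% and 1.12% in segments 51 to 61 to 32.9% and 32.6% in segments 11 to 20, and are lower, at 22.6% and 26.5%, in the 9 segments closest to Trac.

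The count-weighted mean segment number was 20.9 in replicate 1 and 19.7 in replicate 2, or 20.3 ± 0.849 (SD, n = 2). The same position in bases was a mean distance of 22.5 and 21.3 kb upstream of the start of Trac. Going upstream from Trac, 50% of the counts were reached at Traj18 in replicate 1, at 19.7 kb, and at Traj17 in replicate 2, at 18.7 kb. The point of 90% was reached at Traj42 (44.7 kb) in replicate 1 and at Traj39 (40.5 kb) in replicate 2. Replicate 2 therefore stood slightly closer to Trac on each of these measures, with no test possible on 1 value for each library.

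**Figure D2:**
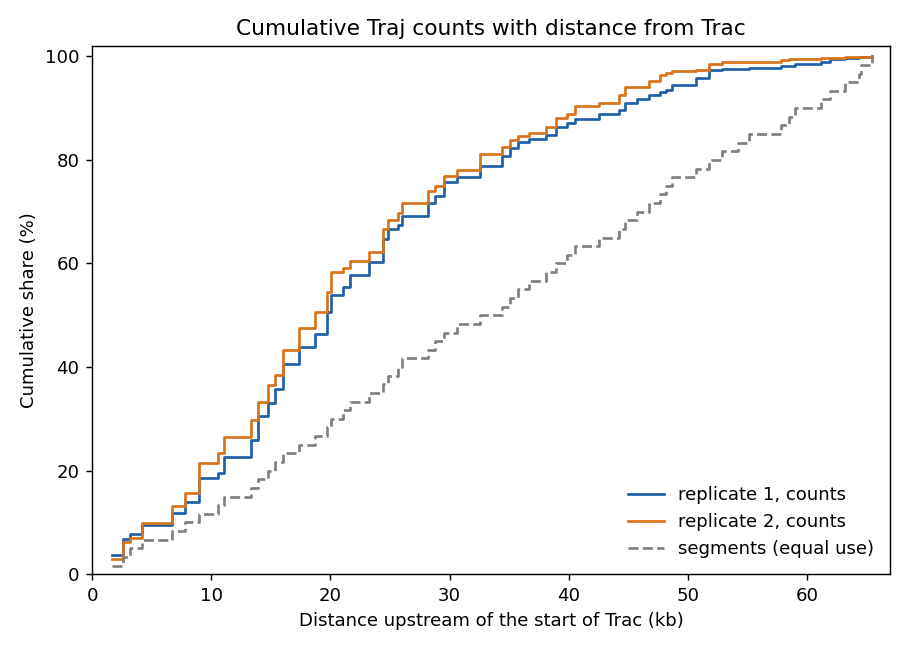
Cumulative share of Traj counts (percent, y axis) with distance upstream of the start of Trac (kb, x axis) for the 2 libraries. The dashed line, labelled equal use, is the cumulative share of the 60 segments themselves, as if each had equal counts. Both library lines run above the dashed line along the locus, and pass 50% at 19.7 kb in replicate 1 and 18.7 kb in replicate 2.

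Across the 60 segments, mean counts and segment number were negatively correlated, with Pearson's r of -0.79 and Spearman's rho of -0.85. These are descriptions across segments that share the same libraries, and not tests. The relation was not uniform along the locus. Within segments 41 and above r was -0.75 (n = 21 segments), within 21 to 40 it was -0.59 (n = 20 segments), and within 1 to 20 it was 0.18 (n = 19 segments), so that position ordered the counts on the V side and in the middle but not among the segments nearest Trac. Exon length had little relation to the counts (r of -0.13 over 60 segments), and counts per exon base kept the relation with number at -0.79.

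The shares of single segments were alike in the libraries, with r of 0.92 and rho of 0.91 over 60 segments. Equal counts would give each segment 1.67%, and 26 segments had a mean share above that. Of these, 16 were numbered 1 to 20, 10 were numbered 21 to 40, and 0 were numbered 41 and above. The 10 segments with the highest mean share took 39.3% and 39.9% of the counts, 9 of them were numbered 1 to 20, and 8 segments were in the top 10 of both libraries.

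**Figure D3:**
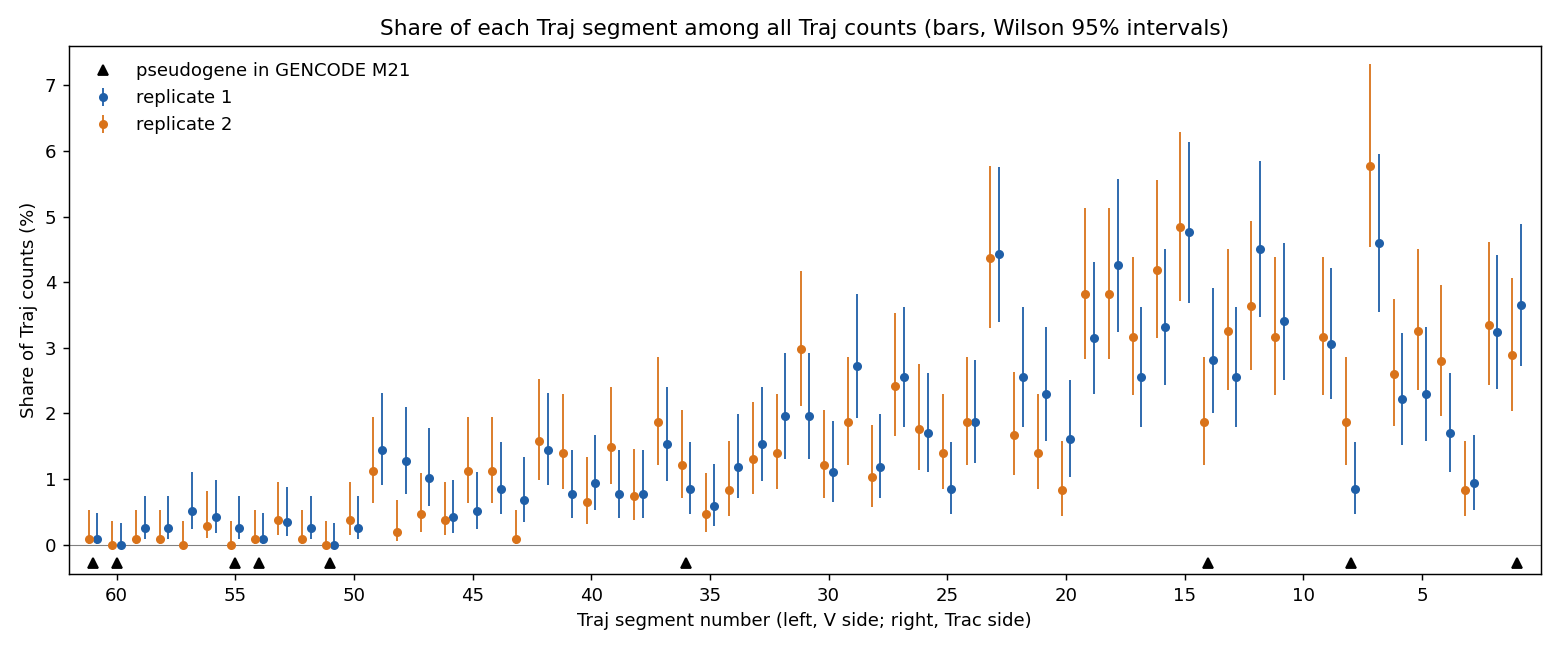
Share of each of the 60 Traj segments among all Traj counts (percent, y axis) by segment number (x axis, V side at the left), with points for the 2 libraries, Wilson 95% intervals as bars, and triangles under the annotated pseudogenes. Shares stay below 1.67% in both libraries from Traj61 to Traj41 and reach 4.60% and 5.77% at Traj7, with low points such as Traj8 and Traj3 among high neighbours.

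Traj7 had the highest share, from 54 counts of replicate 1 and 62 of replicate 2, which was 5.18% ± 0.832 (SD, n = 2). Traj15 followed with 56 and 52 counts (4.80% ± 0.0536), and Traj23, the only one of the 10 outside segments 1 to 20, with 52 and 47 counts (4.40% ± 0.0349). The intervals of these 3 segments overlapped in each library, so their order was not resolved at this depth. Traj12 had 53 and 39 counts (4.07% ± 0.622), Traj16 had 39 and 45 (3.75% ± 0.616), and Traj19 had 37 and 41 (3.48% ± 0.473). Traj2 had 38 and 36 counts (3.29% ± 0.0834), Traj11 had 40 and 34 (3.29% ± 0.169), and Traj1 had 43 and 31 (3.27% ± 0.547). The intervals of these 6 segments overlapped in each library as well. Per exon base, Traj1 came first with 1.28 counts per base as the mean of the libraries. It was followed by Traj7 with 0.983, Traj15 with 0.900, Traj23 with 0.825, and Traj12 with 0.793. This scale favours short exons, because reads that reach past an exon can be counted on it as well. Traj1 has 29 bases and 78 read positions that touch it, against 59 bases and 108 positions for Traj7. By share, Traj1 ranked at place 10.

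The other segments near Trac lay mostly between 20 and 36 counts in a library. Going upstream from Trac, Traj4 had 20 and 30 counts, Traj5 27 and 35, Traj6 26 and 28, Traj9 36 and 34, Traj13 30 and 35, and Traj17 30 and 34. Traj3, with 11 and 9 counts, and Traj20, with 19 and 9, were the low functional segments of this region. In the middle of the array, Traj27 had 30 and 26 counts, Traj31 23 and 32, Traj29 32 and 20, Traj22 30 and 18, Traj24 22 and 20, Traj21 27 and 15, Traj26 20 and 19, Traj37 18 and 20, and Traj32 23 and 15. None of these 9 reached Traj23 in either library. The remaining segments from Traj25 to Traj40 with less than an equal share, Traj33 and the pseudogene Traj36 aside, were Traj25, Traj28, Traj30, Traj34, Traj35, Traj38, Traj39, and Traj40, each with 5 to 16 counts in a library.

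Traj18 and Traj33 are the joining segments of known invariant receptors. Traj18 forms the α chain of invariant natural killer T (iNKT) cells, which recognise lipids on CD1d, and Traj33 forms that of mucosal-associated invariant T (MAIT) cells, which recognise vitamin B metabolites on MR1. Traj18 had 50 and 41 counts, which were 4.26% (3.24 to 5.57) and 3.82% (2.83 to 5.14) of Traj counts, or 4.04% ± 0.310 (SD, n = 2). It ranked at place 5 of 60 by share and at place 7 by counts per base. Its neighbours Traj19, with 37 and 41 counts, and Traj17, with 30 and 34, had overlapping intervals with it in both libraries. Overlap does not show that shares are equal, and a difference of Traj18 from its neighbours was not tested. Traj33 had 18 and 14 counts, which were 1.53% (0.971 to 2.41) and 1.30% (0.778 to 2.18), and ranked at place 28 by both measures. Its neighbours Traj34, with 14 and 9 counts, and Traj32, with 23 and 15, bracketed it in both libraries. A joining segment alone does not name a receptor, since other α chains use both segments.

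The segments of the V side were near the detection limit. Traj60 and Traj51, both pseudogenes, had 0 counts in each library. Traj57 had 6 counts, all of them in replicate 1, and Traj55 had 3, likewise all in replicate 1. Traj61, the first segment of the array, and Traj54 had 1 count in each library. Segments at these levels cannot be ranked against each other. The other segments numbered 51 to 61, which are Traj52, Traj53, Traj56, Traj58, and Traj59, had 1 to 5 counts in a library. From Traj50 to Traj41 the counts ran from 1 to 17, with Traj42 at 17 in both libraries.

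The 9 pseudogenes did not share a level. Together they took 101 and 86 counts, 8.60% and 8.01% of the total, with a median of 1.5 mean counts against 16 for the 51 functional segments. The 5 pseudogenes on the V side, Traj61, Traj60, Traj55, Traj54, and Traj51, held 5 and 2 counts in all, whereas Traj1, Traj14, and Traj8 near Trac held 86 and 71. Traj14 had 33 and 20 counts (2.34% ± 0.669), Traj8 had 10 and 20 (1.36% ± 0.715), and Traj36, in the middle of the array, had 10 and 13 (1.03% ± 0.254). Position also separated the functional segments, of which the 16 numbered 1 to 20 had a median of 36 mean counts and the 16 numbered 41 and above a median of 4.5.

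The pseudogenes with many counts were also those with the shortest exons. Traj1 spans 29 bases, Traj14 34, Traj8 37, and Traj51 43, all shorter than the 50-base read. A read counted on Traj1 must have at least 21 of its bases outside the annotated exon, on Traj14 at least 16, on Traj8 at least 13, and on Traj51 at least 7. Exons of 50 bases or more can hold a whole read at only 5 to 23 positions each. Which bases next to the exon these reads covered is not kept in a table of counts, and the part of unspliced or germline RNA in them was not tested.

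**Figure D4:**
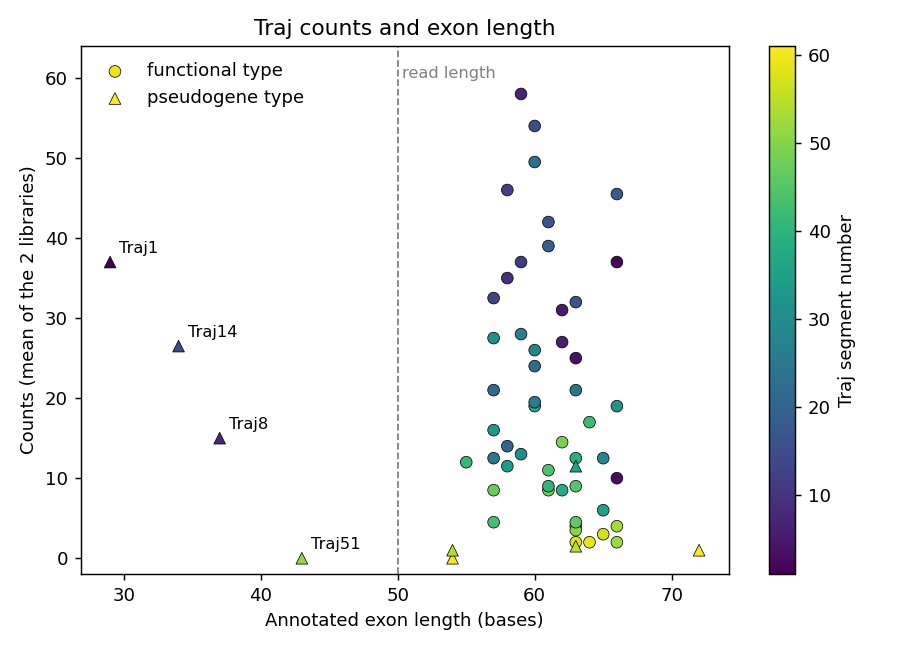
Counts of each Traj segment (mean of the 2 libraries, y axis) by the length of its annotated exon (bases, x axis), with triangles for pseudogenes, colour for the segment number, and the 50-base read length as a dashed line. Left of the line are Traj1, Traj14, Traj8, and Traj51, of which Traj1 reaches a mean of 37 counts from an exon of 29 bases, and right of it low numbers (dark) stand above high numbers (light) at like lengths.

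Neighbouring segments could differ several-fold although they lie close together. Of 58 pairs of neighbouring numbers, 4 include Traj60 or Traj51, which had no count, and have no ratio. Among the other 54, the widest ratio of mean shares was between Traj49, with 17 and 12 counts, and Traj50, with 3 and 4, a ratio of 4.08 over 1033 intervening bases. Traj53 had 4 and 4 counts and the pseudogene Traj54 had 1 and 1, a ratio of 4 that rests on few reads. Traj42 had 17 and 17 counts and Traj43 had 8 and 1, a ratio of 3.91. Among segments with more reads, Traj7 exceeded Traj8 by a ratio of 3.82 and Traj2, with 38 and 36 counts, exceeded Traj3, with 11 and 9, by 3.71, both pairs being named after their values were seen. Traj2 and Traj3 both span 66 bases, and their intervals did not overlap in either library. In none of these 5 pairs did the order of the segments change between the libraries, which the choice of the widest ratios over both libraries largely set. A pair with a narrower ratio could switch, such as Traj39, with 9 and 16 counts, and Traj40, with 11 and 7.

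Of the single Traj segments, 1 was called between the libraries by a test that allows for counting error alone. Each gene with at least 10 counts over both libraries was compared by a two-sided exact binomial test against the ratio of the library totals, adjusted by the Benjamini-Hochberg method over 15949 genes. A gene was called where the adjusted p was under 0.05 and its ratio reached 2-fold. This called 1 of the 46 Traj segments tested, beside 1.52% of all genes tested. By unadjusted p under 0.05 it was also 1 segment, beside 27.7% of all genes. The genes set beside the segments here and below were not matched to them for counts. The share of all genes under that unadjusted p rose as the minimum was raised from 1 to 10 and to 30 counts. These shares therefore do not show whether Traj segments differed less between the libraries than other genes. The test asks whether these libraries differ beyond counting error, and its p-values hold counting error only, with no estimate of the spread between samples.

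The segment called was Traj48, with 15 counts in the first library and 2 in the other. Its log2 ratio of replicate 2 to replicate 1 was -2.86 (exact binomial test, p = 0.00239, adjusted p = 0.0193). It was the only segment of the 60 whose intervals of the share, which rest on the same counts, did not overlap. The lower bound was 0.775% in replicate 1 and the upper bound 0.676% in replicate 2. Where edgeR's exact test was given a fixed biological coefficient of variation of 0.1 in place of counting error alone, Traj48 had an adjusted p of 0.318 and 0 Traj segments were called, beside 0.376% of all genes, with 1 segment under an unadjusted p of 0.05, beside 5.17% of all genes. The next segments in the order of p were Traj8, with 10 and 20 counts and a log2 ratio of 1.04 (exact binomial test, adjusted p = 0.221), and Traj20, with 19 and 9 counts and a log2 ratio of -1.04 (adjusted p = 0.266). Over the segments tested, 27 were lower and 19 were higher in replicate 2, with a median log2 ratio of -0.08 against 0.08 over all genes tested. With DESeq2's size factors 29 were lower and 17 higher, and these medians were -0.14 and 0.01.

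**Figure D5:**
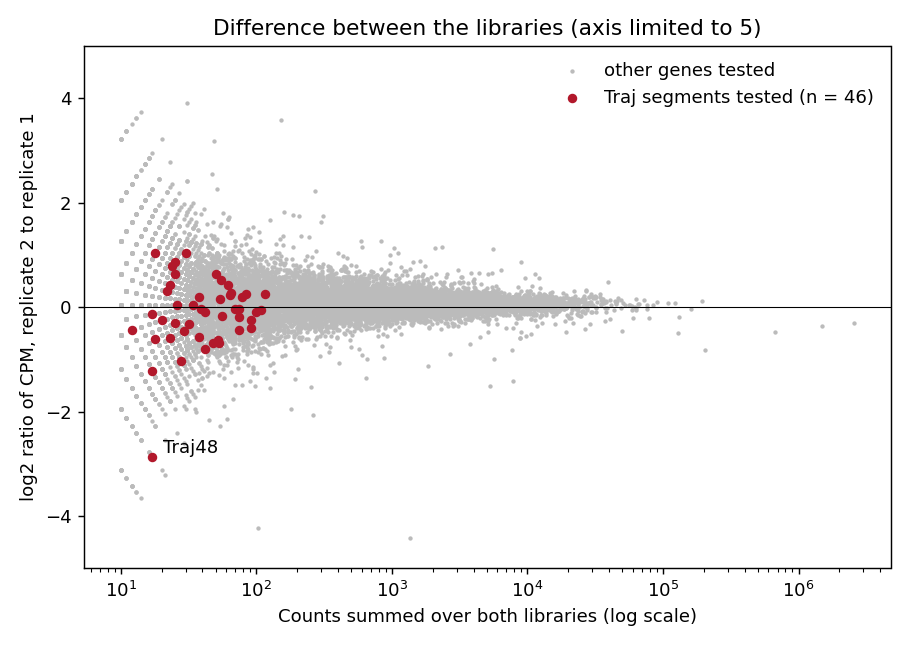
log2 ratio of CPM in replicate 2 to replicate 1 (y axis, limited to 5 in either direction) by counts summed over both libraries (x axis, log scale) for all 15949 genes tested (grey) and the 46 Traj segments tested (red). The Traj segments lie within the spread of other genes at like counts, with Traj48 lowest among them at -2.86.

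Other receptor genes set the scale for these counts. Trac, the constant gene to which Traj exons are spliced, had 7260 and 6497 counts, or 417 CPM ± 24.0 (SD, n = 2). This was 6.18 and 6.05 times the summed Traj counts. The ratio takes no account of length, and the exons of Trac span 935 bases. The 128 Trav rows, the variable segments joined to Traj, had 2269 and 2148 counts in all. The 14 Trbj segments, the joining segments of the β chain, had 1108 and 1144 counts, so that their sum was 0.943 and 1.07 times that of the 60 Traj segments. Per exon base the Trbj segments ran from 0.892 to 3.14 counts with a median of 1.49. The Traj segments ran from 0 to 1.28 with a median of 0.238. These levels are not matched, because the sums are spread over 14 and 60 segments. Trbj exons span 46 to 54 bases and Traj exons 29 to 72, and this scale favours short exons. Every Trbj segment had at least 32 counts in each library, while Traj segments ran down to 0. Joining segments of the γ, δ, and immunoglobulin loci were low: the 4 Trgj rows had 56 and 41 counts, the 2 Trdj rows 3 and 2, the 4 Ighj rows 49 and 50, the 5 Igkj rows 2 and 0, and the 5 Iglj rows 0 and 0. In the test between the libraries, 0 of 14 Trbj segments and 2 of 62 Trav segments tested were called, beside 1.52% of all genes tested. The 2 were Trav12-3 and Trav19, both higher in replicate 1.

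The genes that make and steer the Traj joins were also examined. Rag1 and Rag2, the recombinase, had 8 and 19 counts and 4 and 1 counts respectively, or 0.824 and 0.150 CPM, and Dntt, which adds bases at the joint, had 224 and 211 counts. All 10 genes of the list for recombination and end joining were above 0 in both libraries. They ranged from 0.150 CPM for Rag2 to 122 CPM for Prkdc, the DNA-dependent kinase of end joining. Between the libraries, 0 of the 9 tested were called, beside 1.52% of all genes tested. The 17 factors known for looping of the locus or for its enhancer include Ctcf, the cohesin subunit Rad21, Ets1, and Tcf7. They ranged from 33.9 CPM (Myb) to 1401 CPM (Ets1). Of the 17, 1 was called, Myb, with 372 and 740 counts and thus higher in replicate 2, beside the same 1.52% of all genes. Bcl2l1, a survival gene of CD4+CD8+ thymocytes, whose life span is known to limit how far joining can move along the array, was at 39.5 CPM in these mature cells and was not called.

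The label of mature αβ T cells was checked against marker genes. All 7 T-cell genes, Cd3d, Cd3e, Cd3g, Cd247, Trac, Trbc1, and Trbc2, were between 112 and 589 CPM. Of the markers of CD4+CD8+ thymocytes, Ptcra had 2 and 2 counts (0.121 CPM), Cd4 had 12 and 27, and Dntt was at 13.2 CPM. Of the γδ markers, Trdc was at 6.23 and Sox13 at 1.12 CPM, and Trgc1 and Trgc2 were not among the rows. Of the B-cell markers, Cd79a had 21 and 15 counts, Ms4a1 8 and 5, and Pax5 1 and 0. The 3 myeloid markers summed to 11.8 and 13.0 CPM with Csf1r at 163 and 191 counts, Itgam at 34 and 18, and Lyz2 at 0 and 2, and the 3 erythroid markers were at 0. The 3 markers of NK cells summed to 390 and 425 CPM, of which Nkg7, a gene that cytotoxic T cells also express, made up most, while Klrb1c, an NK-cell receptor gene, had 370 and 446 counts and Ncr1 was called higher in replicate 2 with 45 and 112 counts. Of the genes of innate-like T cells, Il4 was at 0.544 CPM and Gata3 at 46.9 CPM. Zbtb16, which encodes the transcription factor PLZF, had 305 and 351 counts. The paper reports Zbtb16 as up-regulated in these CD4- mature thymocytes against wild-type cells, so it does not mark iNKT cells alone. Of the constant genes, Ighm had 2221 and 2209 counts while Igkc had 2 and 0. The part of these other cells in the Traj counts was not tested.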

How the data were processed

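Sequencing libraries were made by the authors from sorted CD4- mature thymocytes with a poly(A) selection kit and read as single ends of 50 bases. The authors mapped the reads with TopHat2 2.1.1 onto mm10 and deposited raw counts, whole numbers that HTSeq 0.6.1 gave for each gene. The annotation, the strand setting, and the overlap mode of counting are not given in the sources used here, and a read that spans a joining exon and another gene may not have been counted. Of the uniquely aligned reads, 40.6% and 41.2% were assigned to genes and 3.52% and 2.92% were ambiguous; lines that name no gene were left out.

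From the deposited counts, shares were computed among all Traj counts for each library, with Wilson 95% intervals, and CPM was computed from the total on genes. Positions, gene types, and exon sequences came from GENCODE M21 on GRCm38, the same build as mm10, in which all 60 segments were found. The two-sided exact binomial test (scipy 1.17.1) with Benjamini-Hochberg adjustment (statsmodels 0.14.6) was tested on simulated data. These held counting error only, and the changes were put into genes with far more counts than Traj48. They do not show how the test performs at low counts or with spread between samples. edgeR 4.0.16 and DESeq2 1.42.0 gave other library sizes and edgeR an exact test. Named were the 10 highest and 5 lowest shares, segments at 0 or called, the end segments, Traj18, Traj33, the pseudogenes, and the 3 widest neighbour ratios. The alternatives were these library sizes, minimums of 1 and 30 counts, counts per base or per read position that touches the exon, segments left out, and each replicate left out. The members and lists were chosen with earlier results of these data known. Some genes of the marker lists are not reported here.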

Additional observations from a re-analysis of the deposited data

How the results depend on the processing

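Of 38 alternatives for 7 results, 32 stayed within 1 SD or, for counts of calls, within 1.5 times. Alternatives that leave out 1 of the 2 replicates always fall within 1 SD by construction. They are counted among the 32 but say nothing about stability. The number of Traj segments called between the libraries, 1 in the report, was 0 with a minimum of 30 counts, which leaves Traj48 untested, and 0 where edgeR's exact test took a biological coefficient of variation fixed at 0.1. This rests on Traj48 alone, whose adjusted p ran from 0.0158 to 0.318 where it was tested. Over all genes the calls were 242 in the report, 198 by TMM, 202 by DESeq2's library sizes, 164 with a minimum of 30 counts, and 60 with edgeR's exact test. Of the 242 calls, 150 were higher in replicate 2 and 92 in replicate 1, against 98 and 100 by TMM library sizes, and 104 and 98 by those of DESeq2. Per exon base, the mean segment number was 19.5 and the share of Traj18 3.49%. Without the 4 segments whose exon is shorter than the read, an alternative chosen after seeing the data, the share of segments 1 to 20 was 54.1% and the mean number 21.4. Without 1 or the other replicate, the share of segments 1 to 20 ran from 55.5 to 59.1% and that of segments 41 and above from 8.94 to 11.1%. At 1 to 6 counts for a segment, differences among segments 51 to 61 were not detectable. No paired analysis was possible because there is 1 group only.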
